A study of Mus musculus with 16 samples.

Results

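The comparison described here set mouse embryonic stem cells after 48 h of E1A induction against a control harvested at 48 h, on 2 arrays each, so that 4 of the 16 arrays of the study entered it as members. It was chosen because it is the pair of groups in the study with the same harvest time, and its probes were then followed back to 24 h and 0 h on 4 other arrays. The study followed E1A induction over 0, 3, 6, 9, 12, 24 and 48 h in embryonic stem cells of mixed background (C57BL/6, C3H and CD1), and its title places it in work on steps of reprogramming that do not need Sox2. The 48 h group carries E1A induction as its treatment. The 48 h control is named a cherry control, carries the same treatment label and background, and is not stated either to carry or to lack E1A. Below it is named the 48 h control. The labels give neither the promoter that drives E1A, nor the inducing agent, nor whether a clone or separate cultures were used. The spread behind every p-value is thus the one between these samples, and it may be technical. The level of E1A itself was not analysed here.

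E1A is an adenoviral early protein that binds no DNA sequence by itself and acts by binding host proteins. Its best known partners are the retinoblastoma family, whose release frees E2F transcription factors, and the p300 and CBP acetyltransferases, which serve as coactivators at many enhancers. Embryonic stem cells hold their state through a network of transcription factors built around Oct4 (gene Pou5f1), Nanog and Sox2, with Klf4, Esrrb, Tbx3 and Prdm14 among the factors of the naive state.

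Intensities were measured on single-colour Illumina bead arrays, on which each probe gives an intensity and a detection p-value for every array. At a detection p-value under 0.05, each array detected 12124 to 12639 of its 25697 probes. The 13974 probes that 2 or more of the 16 arrays detected were tested. Levels below are normalized log2 intensities, and a difference is the 48 h mean minus the control mean on that scale, with its standard error (SE). Levels of different probes cannot be set against each other. All 9 of the embryonic stem cell markers that had a probe were detected on both arrays of both groups. Their summed raw intensity was 49485 to 52455 on the 48 h arrays and 66503 to 68539 on the control arrays. Of 9 fibroblast or feeder markers, Col1a1, Col1a2, Col3a1, Lum, Pdgfrb and Postn were detected on no 48 h or control array, and the summed raw intensity of that list was 1307 to 1338 at 48 h and 1277 to 1317 in the control. Raw sums hold the background intensity of undetected probes too. In such bulk samples, fewer cells of a type and less RNA per cell cannot be told apart.

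After 48 h of induction 2502 probes, 17.9% of those tested, differed from the 48 h control (limma, Benjamini-Hochberg adjusted p under 0.05 over all tested probes). Of these, 1237 were higher (8.85% of those tested) and belonged to 1019 named genes, and 1265 were lower (9.05%) and belonged to 1027 named genes. In all 2502 the arrays of the 2 groups did not overlap, as was the case for 56.6% of tested probes, and 29.5% of tested probes had an unadjusted p under 0.05. The differences were small for most probes. The median was 0.46 among the higher probes, a 1.38-fold difference, and -0.52 among the lower ones, a 1.43-fold difference. The lower calls reached further, since 134 of them (10.6% of the lower calls, 0.959% of tested probes) were at least 1 below the control on the log2 scale, while 65 of the higher calls (5.25% of them, 0.465% of tested probes) were at least 1 above it. At a difference of 2 or more this order was turned, with 6 higher and 4 lower probes. Calls were made at all levels of brightness, at 12.3%, 20.6%, 23.05% and 15.7% of probes in 4 classes of equal size from dim to bright, with a median SE of 0.14 in the dimmest and 0.10 in the brightest class. The count of calls dropped to 1411 without 48 h replicate 1, to 1475 without 48 h replicate 2 and to 1551 without control replicate 2. No call shared with these smaller fits changed its sign.

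**Figure D1:**
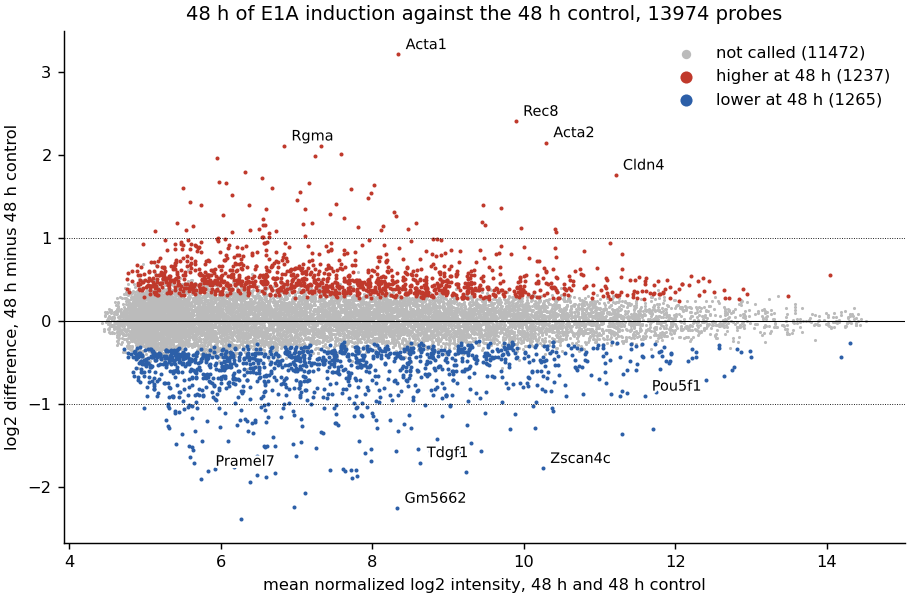
Each point is 1 of the 13974 tested probes, plotted by its mean normalized log2 intensity over the 48 h and 48 h control arrays (horizontal) and by its log2 difference, 48 h minus control (vertical). Red points are the 1237 higher calls, blue points the 1265 lower calls and grey points the probes not called, with dotted lines at 1 and -1. Acta1, at 3.21, stands above all other probes, and the blue points below -1 outnumber the red points above 1.

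Actins of muscle were among the highest differences, and Acta1 was the highest. Acta1, the actin of skeletal muscle, had levels of 10.05 and 9.84 on the 48 h arrays, against 6.84 and 6.64 on the control arrays. Both 48 h arrays lay far above both control arrays, a difference of 3.21 (SE 0.14, adjusted p = 1.89e-09) or 9.23-fold. Acta2, the alpha actin of smooth muscle, had 4 tested probes, and all were higher, by 1.54 to 2.15. Its brightest probe read 11.43 and 11.30 at 48 h, against 9.21 and 9.23 in the control (difference 2.15, SE 0.08, adjusted p = 9.74e-10). Actg2, the gamma actin of enteric smooth muscle, read 6.33 and 6.26 at 48 h, against 5.03 and 4.71 in the control, where it was not well above background on either array. It was therefore at least 2.34-fold higher. Such bounds set the mean of the bright group against the mean, over the arrays of the dim group, of the higher of the probe's own level and the lowest level among probes above background. Actc1, the cardiac actin, was likewise not well above background in the control and was at least 1.42-fold higher at 48 h (5.69 and 5.46, against 4.98 and 4.67). Together the muscle actins gave 7 tested probes, all of them higher.

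Cytoplasmic beta actin (Actb) did not share this size of difference. Of its 5 tested probes 1 was higher, at 0.34 (11.88 and 11.89 at 48 h, against 11.56 and 11.54 in the control, adjusted p = 0.0295), and the other 4 were not called, at 0.30, -0.12, -0.48 and -0.54. The single call was lost when any 1 of the 4 arrays was left out, with adjusted p of at most 0.125. The actin group as a whole was chosen after its values were seen. Actin coding sequences are nearly identical, so that a probe may read more than 1 of these genes.

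The actins differed in where they stood before 48 h. Acta1 read 7.05 and 6.67 at 24 h, against 7.39 and 7.55 at 0 h, and its fall over the first day was called (-0.61, adjusted p = 0.00372). The 24 h arrays of Acta1 thus lay near the control level and far below 48 h. The brightest Acta2 probe read 10.48 and 10.55 at 24 h, against 10.38 and 10.41 at 0 h (0.12, adjusted p = 0.32). Both of these levels lay between 48 h and the control, more than 1 log2 unit above the control. Actg2 was detected at 24 h (6.16 and 6.34) and at 0 h (6.25 and 6.34), where it stood at its 48 h level.

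The windows upstream of Acta1, Actc1 and Acta2 are shown because these genes were higher together and because muscle actin promoters are known for CArG boxes, the binding motif of serum response factor. They are the 250 bases before each gene's start in RefSeq (build GRCm38.p6), Acta1 at chr8:123894776-123895025, Actc1 at chr2:114052876-114053125 and Acta2 at chr19:34255374-34255623, all on the minus strand and written 5′ to 3′ along the gene, with CArG boxes in capitals.
Acta1: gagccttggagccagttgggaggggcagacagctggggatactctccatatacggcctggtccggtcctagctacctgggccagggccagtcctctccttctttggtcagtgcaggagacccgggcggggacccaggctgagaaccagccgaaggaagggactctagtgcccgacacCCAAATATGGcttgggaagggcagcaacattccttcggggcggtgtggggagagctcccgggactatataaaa
Actc1: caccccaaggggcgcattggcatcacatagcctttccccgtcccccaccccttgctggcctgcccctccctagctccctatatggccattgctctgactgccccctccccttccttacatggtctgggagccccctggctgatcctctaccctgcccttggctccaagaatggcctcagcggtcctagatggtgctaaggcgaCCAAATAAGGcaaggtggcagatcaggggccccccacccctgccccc
Acta2: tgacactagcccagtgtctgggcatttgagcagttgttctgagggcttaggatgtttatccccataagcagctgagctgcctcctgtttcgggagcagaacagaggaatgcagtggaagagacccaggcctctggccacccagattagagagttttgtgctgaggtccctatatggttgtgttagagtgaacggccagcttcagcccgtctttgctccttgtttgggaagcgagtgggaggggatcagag
The windows of Acta1 and Actc1 each held 1 CArG box, whose first base lay 73 and 47 bases before the start. The window of Actg1, a cytoplasmic actin and not a muscle one, held 1 as well, 90 bases before the start. The motif reads the same on both strands. It was found in 482 of 32851 such windows (1.47%). No exact match of the motif was found in the Acta2 window, which does hold ccctatatgg and ccttgtttgg, each 1 letter away from it. Near matches also stand in the other windows shown. Among them are ccatatacgg and ccttctttgg for Acta1, and ccctatatgg, ccttacatgg and ccaagaatgg for Actc1. Only exact matches were counted and set in capitals. Srf, the gene of serum response factor, was higher at 48 h by 0.57 at its bright probe (9.24 and 9.23, against 8.73 and 8.59, adjusted p = 0.000515). Its second probe, not detected in either group, gave 0.17 (adjusted p = 0.543). Whether serum response factor had a part in the actin differences was not tested. Other cytoskeletal genes were looked at after their values were seen, with no count over all such genes. Some were called lower, such as Synm (-0.74) and Lima1 (-0.54). Of the higher ones, Tpm1, a tropomyosin that lies along actin filaments, was at 1.06 (10.92 and 10.98, against 9.88 and 9.89). Myl3, a myosin light chain of heart and slow muscle, was higher by 1.32 (8.95 and 8.93, against 7.52 and 7.73). Vcl, which links actin to adhesion sites, was higher by 0.45 (adjusted p = 0.00826), a call lost without 48 h replicate 2 or control replicate 2, with adjusted p of at most 0.085.

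The 12 highest probes held 3 of the Acta2 probes and 8 further genes with roles outside muscle. Rec8, a cohesin subunit of meiosis, read 11.11 and 11.08 at 48 h, against 8.81 and 8.58 in the control (2.40, SE 0.09, adjusted p = 9.74e-10). It was also higher at 24 h than at 0 h (10.67 and 10.69, against 7.53 and 7.38, difference 3.22), and its control level lay between these. Rgma, a co-receptor for bone morphogenetic proteins, read 7.90 and 7.87 at 48 h, against 5.96 and 5.60 in the control (2.11, adjusted p = 5.54e-06), and it was detected on no 0 h array.

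Fgfbp1, a carrier of fibroblast growth factors, read 8.63 and 8.55 at 48 h, against 6.44 and 6.73 in the control (2.01, adjusted p = 9.98e-08). Its levels at 24 h (9.01 and 9.11) and at 0 h (8.83 and 8.69) were above both, so that the control was the low group for this gene. Lox, which cross-links collagen and elastin, read 7.22 and 7.20 at 48 h, against 5.48 and 5.35 in the control (1.79, adjusted p = 1.01e-07), and 6.95 and 7.08 already at 0 h. Spen, a nuclear repressor that takes part in X inactivation, read 6.83 and 7.02 at 48 h, against 4.92 and 5.002 in the control. It was not well above background on either control array and was at least 3.61-fold higher. Spen stood at its 48 h level by 24 h (7.28 and 7.16, against 5.24 and 5.68 at 0 h).

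Ccnd2, a D-type cyclin, read 7.35 and 7.43 at 48 h, against 5.84 and 5.52 in the control (1.71, adjusted p = 1.04e-06), with 0 h close to the control at 5.65 and 5.89. Zfp608, a zinc finger gene, read 6.91 and 6.70 at 48 h, against 5.28 and 4.99 in the control, where 1 of the 2 arrays detected it (1.67, adjusted p = 5.47e-07). Cldn4, a claudin of epithelial tight junctions, read 12.08 and 12.10 at 48 h, against 10.35 and 10.32 in the control (1.75, adjusted p = 4.27e-08). At 0 h Cldn4 stood lower still, at 9.36 and 9.32. Of these 8 genes, Fgfbp1 alone had its 0 h level above both 48 h groups. The size of a difference of dim probes depended on the background correction, and Spen ranged from 0.71 without it to 2.75 in the authors' value table.

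**Figure D2:**
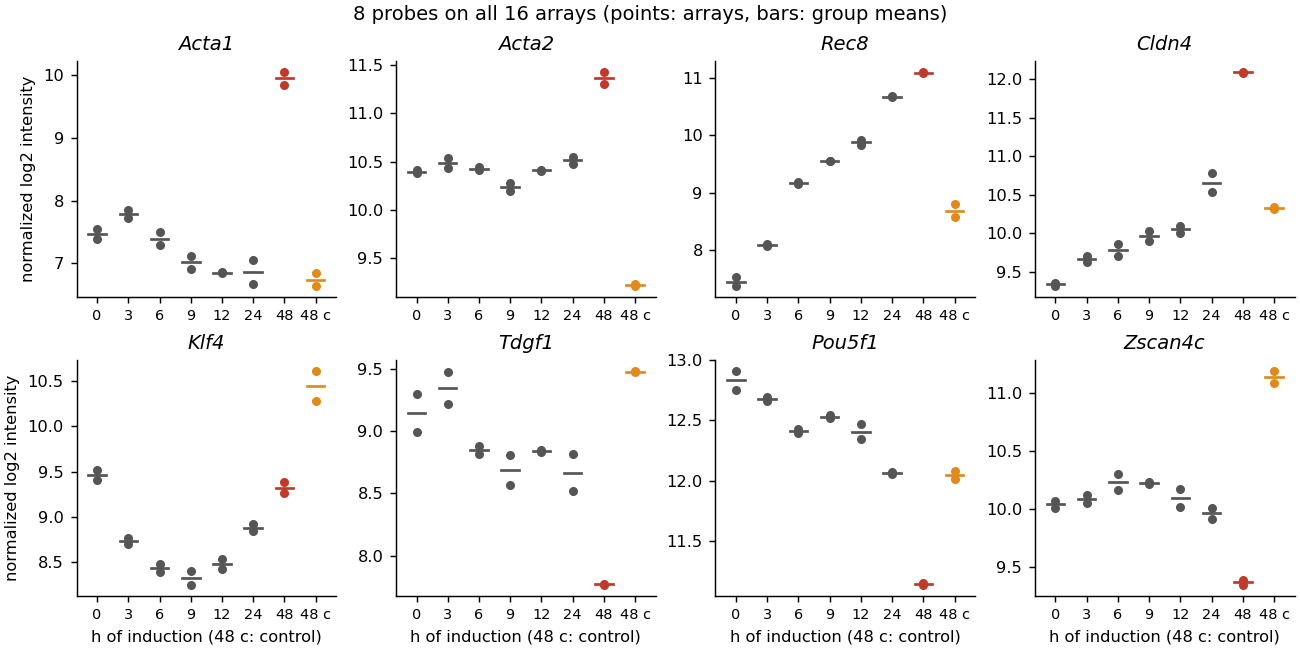
Normalized log2 intensity (vertical) of 8 probes on all 16 arrays, by hours of induction (horizontal, steps not to scale), with the 48 h group in red and the 48 h control (48 c) in orange. Points are arrays and bars are group means. In the upper row the 48 h arrays lie above the control, with Acta1 reaching its high level after 24 h and Rec8 climbing from 3 h on, and in the lower row the 48 h arrays lie below it, with Klf4, Tdgf1 and Zscan4c higher in the control than at 0 h.

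Keratins and claudins of epithelia were among the higher genes. Of 5 tested genes of an epithelial junction list, 3 were higher, 0 were lower and the median difference was 0.77. Over all tested probes 8.85% were higher, 9.05% were lower and the median was 0.01. Krt18 and Krt8, the paired keratins of simple epithelia, were higher by 1.26 and 1.19. Krt18 read 8.96 and 8.91 at 48 h, against 7.61 and 7.75 in the control, and Krt8 averaged 10.04 ± 0.05 at 48 h, against 8.85 ± 0.08 in the control (SD, n = 2 each). The groups of both keratins lay apart by more than their own spread. Cldn6, a claudin of early epithelia, was higher by 0.77 (10.79 and 10.81, against 10.03 and 10.04). Cdh1, the gene of E-cadherin, was at 0.11 (SE 0.09, adjusted p = 0.477) and Cldn7 at 0.33 (adjusted p = 0.0915). All of the 3 called genes were higher at 24 h than at 0 h as well, by 1.15 for Krt18, 1.13 for Krt8 and 1.74 for Cldn6.

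Further keratins and claudins were looked at after their values were seen. Krt19 was not well above background in the control and was at least 1.59-fold higher at 48 h. Krt7 was higher by 0.68 (7.54 and 7.56, against 7.03 and 6.71), with an adjusted p of 0.0538 without control replicate 2. Of 8 tested claudin probes, 4 were higher and 0 were lower, beside 8.85% and 9.05% of all tested probes. The higher ones were Cldn4, Cldn3 (1.51), Cldn6 and Cldn34c1, whose call was lost under 8 of the alternatives tried. Cldn3 read 6.88 and 6.93 at 48 h, against 5.64 and 5.14 in the control, and was detected on no 0 h array.

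Among genes of the mesenchymal list, which opposes the epithelial one in textbook accounts, 2 of 5 tested were higher and 1 was lower. The median was -0.004, and over all tested probes 8.85% were higher and 9.05% were lower. Zeb2, a repressor of E-cadherin, was higher by 0.55 (adjusted p = 0.0116) and Vim, the gene of vimentin, by 0.28 (adjusted p = 0.0318). Twist1, a mesodermal factor, was lower (-0.51, adjusted p = 0.0467). None of these 3 calls held in every fit with 1 array left out, and without 48 h replicate 2 or control replicate 2 the list had 0 calls.

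Lists of embryo lineages held calls in both directions. Of 6 tested trophectoderm genes, Krt8, Krt18 and Gata3 were higher, and the median was 0.39, beside 8.85% higher and a median of 0.01 over all tested probes. Gata3, a transcription factor of trophectoderm and of T cells, read 7.27 and 7.22 at 48 h, against 6.38 and 6.49 in the control (0.81, adjusted p = 0.000596). Cdx2, Elf5, Eomes and Hand1, which define trophectoderm, were detected on no 48 h or control array. The summed raw intensity of the trophectoderm list was 9863 to 10502 at 48 h and 9277 to 10067 in the control, ranges that overlap.

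Of 7 tested primitive endoderm genes 1 was higher and 1 was lower, with a median of 0.16. Over all tested probes 8.85% were higher and 9.05% were lower, with a median of 0.01. Sox17, an endoderm factor, was higher by 0.68 (7.43 and 7.40, against 6.80 and 6.68, adjusted p = 0.000841). Gata6, another, was lower, with 9.15 and 8.89 at 48 h, against 9.62 and 9.50 in the control (-0.54, adjusted p = 0.00471), and this call was lost without 48 h replicate 2 (adjusted p = 0.0723). The summed raw intensity of this list was 5916 to 6380 at 48 h and 5125 to 5896 in the control. Of 3 tested neuroectoderm genes, Nes (0.46) and Otx2 (0.31) were higher and Tubb3 was not called. Both calls were lost in 3 or more of the 4 fits that left out an array, and the list summed to 1463 to 1562 at 48 h and to 1303 to 1376 in the control. The 1 tested mesoderm gene, Gata4, was not called (0.34, adjusted p = 0.179), and that list summed to 672 to 688 at 48 h and to 643 to 666 in the control. No gene of that list was detected on both arrays of either group, so these raw sums are mostly background. Of 4 tested fibroblast genes, Dcn was called higher (adjusted p = 0.00447) with 4.998 and 5.12 at 48 h, where 1 of 2 arrays detected it, against 4.52 and 4.46 in the control, where it was not well above background, so no size is given. Twist1 was lower. The part of these other cell types in the differences was not tested.

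**Figure D3:**
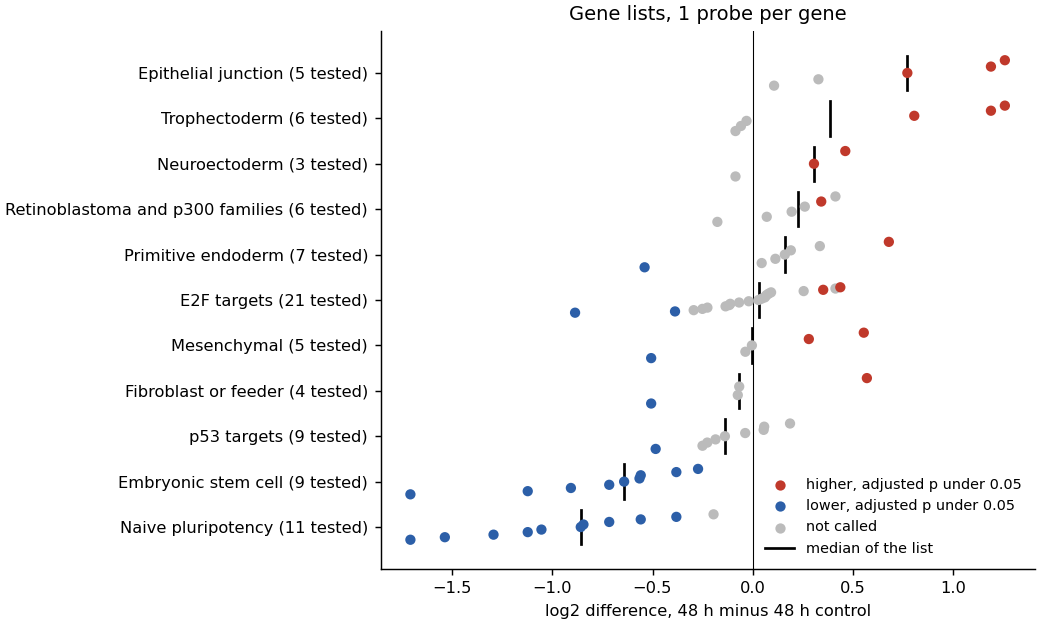
Log2 difference, 48 h minus 48 h control (horizontal), of each tested gene in the gene lists with 3 or more tested genes (rows), with 1 probe per gene. Red and blue points passed the test as higher and lower, grey points did not, and black bars are list medians. The 2 pluripotency lists lie wholly to the left, with medians of -0.64 and -0.86, the epithelial junction list to the right, and the E2F and p53 target lists around 0.

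Genes of the immediate response to growth signals and stress were looked at after their values were seen. All 4 tested genes of the Jun and Fos family, the subunits of the AP-1 factor, were higher at 48 h, beside 8.85% of all tested probes. Fos read 8.02 and 7.96 at 48 h, against 6.29 and 6.37 in the control (1.66, adjusted p = 1.01e-07). Jun read 6.96 and 6.83 at 48 h, against 5.31 and 5.15 in the control (1.66, adjusted p = 9.96e-07). Both genes were also higher at 24 h than at 0 h, Fos by 1.32 and Jun by 1.72. Junb (0.61) and Jund (0.50) differed less, and the Jund call was lost when the 4 arrays harvested at 48 h were fitted alone and without 48 h replicate 2 or control replicate 2 (adjusted p of at most 0.249). Egr1, a zinc finger factor of the same response, was higher by 1.35, while Egr4 was lower and Egr2 and Egr3 were not called. All 4 Egr genes had a 0 h level above both the 48 h group and the control.

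Id proteins, which hold back helix-loop-helix factors and are targets of bone morphogenetic protein signals, were looked at after their values were seen. Id4 read 7.72 and 7.85 at 48 h, against 6.49 and 6.38 in the control (1.35, adjusted p = 6.68e-07), and was low at 0 h (5.26 and 5.18). Id1 was higher by 0.88 (6.75 and 6.67, against 5.99 and 5.68), but stood above both groups at 0 h (7.36 and 7.36). Id3 was not well above background in the control and was at least 1.4-fold higher, a call lost without 3 of the 4 arrays in turn (adjusted p of at most 0.108). Id2 was not called (-0.10, adjusted p = 0.62).

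Pluripotency genes were lower at 48 h than in the control. Of the 9 tested genes of the embryonic stem cell list all 9 were lower, with a median of -0.64. Of the 11 tested genes of the naive pluripotency list 10 were lower, with a median of -0.86, and Klf5 was not called (-0.20, adjusted p = 0.275). Tdgf1, Klf4, Esrrb, Zfp42 and Nanog are in both lists, which were chosen with earlier results of these data known. Over all tested probes the median was 0.01 and 9.05% were lower.

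Tdgf1, a co-receptor for Nodal, differed most in both lists, with 7.76 and 7.77 at 48 h, against 9.47 and 9.48 in the control (-1.71, SE 0.13, adjusted p = 5.37e-07). Its second probe gave -1.50. Fgf4, the growth factor that embryonic stem cells secrete, read 6.34 and 6.63 at 48 h, against 7.97 and 8.08 in the control (-1.54, adjusted p = 5.11e-07). Tbx3, a T-box factor of the naive network, read 9.42 and 9.58 at 48 h, against 10.81 and 10.78 in the control (-1.29, adjusted p = 6.75e-07). At the probes with levels given, both 48 h arrays of all 3 genes lay below both control arrays by more than 1 log2 unit. Another Tbx3 probe ranged from -1.51 to -1.24 over the alternatives. A further Tbx3 probe differed less, from -0.72 to -0.20, and its call was lost without control replicate 2.

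Klf4 had 3 tested probes and all were lower, by -1.12, -1.34 and -1.56. Its brightest probe read 9.26 and 9.39 at 48 h, against 10.28 and 10.62 in the control. Klf2 read 10.06 and 9.81 at 48 h, against 10.88 and 10.68 in the control (-0.84, adjusted p = 0.000221). Among all 20 tested probes of Kruppel-like factors, a group chosen after its values were seen, 6 were lower and 3 were higher. The shares over all tested probes were 9.05% and 8.85%. Of the higher ones, Klf6 lost its call under 5 of the alternatives tried (adjusted p of at most 0.247) and Klf3 without control replicate 1 (0.0587). Of the lower ones, 1 of the 2 Klf17 probes lost its call under 8 (at most 0.357). The 2 probes of Tcl1, a cofactor of Akt kinase, were at -1.05 and -1.11.

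Pou5f1, the gene of Oct4, read 11.15 and 11.13 at 48 h, against 12.01 and 12.08 in the control (-0.91, SE 0.09, adjusted p = 4.73e-06), and its second probe was at -0.84. The 24 h arrays of Pou5f1 lay at 12.06 and 12.07, on the control level, and the 0 h arrays higher, at 12.91 and 12.76. Esrrb, an orphan nuclear receptor of the naive network, read 12.07 and 12.01 at 48 h, against 12.83 and 12.68 in the control (-0.72, adjusted p = 9.46e-05). Prdm14, a factor that restrains differentiation, was at -0.86, with 4.89 and 5.14 at 48 h, where 1 of 2 arrays detected it, against 5.71 and 6.03 in the control.

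Zfp42, the gene of Rex1, and Utf1 were both at -0.56. Both stood highest at 0 h, Zfp42 at 11.36 and 11.50 and Utf1 at 10.89 and 11.17. Nanog was at -0.38 (12.11 and 12.06 at 48 h, against 12.42 and 12.50 in the control, adjusted p = 0.02), and its 24 h arrays (11.20 and 11.26) and 0 h arrays (11.80 and 11.54) lay below both groups. Sox2 was at -0.64 (adjusted p = 0.00701) at its brighter probe and at -0.43 (adjusted p = 0.0599) at the other. The calls of Nanog, Sox2 and Dppa5a (-0.27, adjusted p = 0.0383) were the ones lost when an array was left out. A dimmer Dppa5a probe was also called lower and ranged from -0.44 to -0.39 over the alternatives, and another was not called. Without 48 h replicate 1 or without control replicate 2, 6 of the 9 embryonic stem cell genes were called, and 9 of the 11 naive genes.

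The control lay on either side of the 0 h level for these genes, in values that were not tested. For Klf4, Tbx3, Esrrb, Nanog and Tcl1 the control lay above 0 h, and for Pou5f1, Zfp42 and Utf1 below it. Tbx3 read 8.60 and 8.72 at 24 h, against 9.24 and 9.31 at 0 h, all below the control. The means of 24 h and 0 h use no array of 48 h or its control. Between them, 10 of the 11 naive genes were lower at 24 h. The median was -0.58, beside a median of -0.01 and 14.1% lower over all tested probes. The spread behind these calls comes from the fit to all 16 arrays.

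The lowest differences lay outside the pluripotency lists. Of the 12 lowest probes, 6 belong to 6 named genes and 6 are unnamed here. The probe ILMN_2810827 was lowest, with 5.06 and 5.06 at 48 h, where it was not well above background, against 7.49 and 7.42 in the control, at least 5.13-fold lower. The named ones are Gm5662 (-2.26), Gm428 (-2.25), AF067063 (-1.94), Cbln1 (-1.86), Vstm2l (-1.84) and Jam2 (-1.82). Gm5662 read 7.15 and 7.25 at 48 h, against 9.29 and 9.62 in the control (adjusted p = 6.22e-08), while a second probe of that gene was not called (-0.20, adjusted p = 0.353).

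Cbln1, a secreted organiser of synapses, read 6.98 and 6.75 at 48 h, against 8.88 and 8.58 in the control (adjusted p = 7.97e-07). Its 0 h arrays stood lower than both groups, at 5.89 and 5.92. Jam2, a junctional adhesion molecule, had 4 tested probes, all lower. The 2 that were detected at 48 h were at -1.82 and -1.51, and the other two, not well above background there, were at least 1.42-fold and 1.33-fold lower. Its brightest probe read 8.32 and 8.33 at 48 h, against 10.02 and 10.27 in the control. All 4 Jam2 probes were also lower at 24 h than at 0 h, by -1.22 to -2.38.

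Gene families of the early embryo were looked at after their values were seen, so their counts are descriptions. Over all tested probes 9.05% were lower. Of 10 tested probes of the Pramel family, repeated genes expressed in germ cells and early embryos, all 10 were lower, with a median of -1.26. Pramel7, a member tied to self-renewal of embryonic stem cells, read 4.89 and 4.96 at 48 h, where it was not well above background, against 6.72 and 6.76 in the control, at least 3.12-fold lower. Pramel6 and Pramel17 were likewise not detected at 48 h, at least 1.78-fold and 2.47-fold lower. Pramel20 (-1.80), Pramel39 (-1.25) and the 2 probes of Pramel37 (-1.26 each) were detected in both groups, and Pramel31 (-0.93), Pramel12 (-0.65) and Pramel13 (-0.45) differed least. Pramel13 lost its call when any 1 of the 4 arrays was left out and under median scaling, where 9 of the 10 were lower.

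Of 6 tested probes of the Tdpoz family, BTB-domain genes of the oocyte and early embryo, 5 were lower and 1 was not called. Of all tested probes 9.05% were lower. Tdpoz4 was not well above background at 48 h and was at least 2.07-fold lower at one probe (4.69 and 4.63 at 48 h, against 6.03 and 6.27 in the control), while its other probe was the one not called. Zscan4c, a gene of the 2-cell embryo that a small share of embryonic stem cells switches on, read 9.34 and 9.39 at 48 h, against 11.09 and 11.20 in the control (-1.78, SE 0.09, adjusted p = 1.71e-08). Zscan4c read 9.91 and 10.01 at 24 h, against 10.01 and 10.07 at 0 h (-0.08, adjusted p = 0.562), and both times lay between the 48 h group and the control.

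Tcstv3 and Tcstv1, of the same early embryo programme, were at -1.57 and -1.54. Tcstv3 read 7.98 and 7.98 at 48 h, against 9.51 and 9.59 in the control, and 7.79 and 7.60 at 0 h, so that the control was the high group. Usp17la, a deubiquitinase gene, read 5.79 and 5.52 at 48 h, against 7.27 and 7.30 in the control (-1.63), again with 0 h low at 5.47 and 5.49. Trim43a was not well above background at 48 h and was at least 2.65-fold lower. Of the Phf11 family 3 of 4 tested probes were lower, 2 of Phf11a (-1.52 and -1.33) and 1 of Phf11d (-0.36), beside 9.05% of all tested probes. Among the 4 probes, 2 were detected on no 48 h array, and for such a probe the value given here is not a bound. The Phf11a sizes depended on the alternative, from -0.48 to -2.39 and from -0.42 to -2.00. The Phf11d call was lost when the 4 arrays harvested at 48 h were fitted alone, without 48 h replicate 1 and without control replicate 2 (adjusted p of at most 0.0791). The Pramel, Tdpoz, Zscan4, Tcstv, Usp17 and Phf11 genes lie in clusters of near-identical copies, so which copy a probe reads is uncertain.

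Etv4 and Etv5, transcription factors known as outputs of fibroblast growth factor signalling, were also looked at after their values were seen. No list of such outputs was drawn up, and whether that signalling differed was not tested. Etv4 read 5.18 and 5.39 at 48 h, against 7.04 and 7.06 in the control (-1.76, adjusted p = 1.71e-08). Etv5 read 7.23 and 7.48 at 48 h, against 8.04 and 7.98 in the control (-0.66, adjusted p = 0.00045). Both genes fell over the first day as well, by 1.40 and 0.87 at 24 h against 0 h, and both stood highest at 0 h (Etv4 at 9.20 and 9.09).

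Targets of E2F, the factors held by the retinoblastoma family, were called at about the share of all tested probes. Of 21 tested genes 2 were higher, 2 were lower and 17 were not called, with a median of 0.03, beside 17.9% called and a median of 0.01 over all tested probes. The median turned to -0.08 without 48 h replicate 2 and to -0.06 without control replicate 1. Between 24 h and 0 h, 0 of the 21 genes were higher and 6 were lower, with a median of -0.20. Over all tested probes 14.8% were higher and 14.1% lower in that contrast, with a median of -0.01. Ccne1, the gene of cyclin E1, was higher by 0.44 (9.55 and 9.49 at 48 h, against 9.10 and 9.06 in the control, adjusted p = 0.0043), and stood above both at 0 h (10.13 and 10.19). Mcm5, a replication helicase subunit, was at 0.35 (adjusted p = 0.0424) and Tk1, thymidine kinase, at -0.39 (adjusted p = 0.0171), and both calls were lost without 3 of the 4 arrays in turn. Mybl2, a cell cycle factor that embryonic stem cells express strongly, was lower at all 3 probes, by -0.81 to -0.99, with 10.71 and 10.70 at 48 h, against 11.65 and 11.53 in the control at the brightest.

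Of 6 tested genes of the retinoblastoma and p300 families, E2f3 was higher (0.34, adjusted p = 0.0303, lost without 3 of the 4 arrays in turn) and 5 were not called, beside 17.9% called over all tested probes. The genes not called include Rb1 (-0.18, adjusted p = 0.267), Rbl1 (0.41, adjusted p = 0.0593) and Ep300 (0.26, adjusted p = 0.112). Of 9 tested p53 targets 1 was lower, 0 were higher and 8 were not called, with a median of -0.14, beside 9.05% lower over all tested probes. The lower one was Plk2, a kinase gene, with 8.48 and 8.48 at 48 h, against 8.96 and 8.98 in the control (-0.48, adjusted p = 0.00236). Cdkn1a, the gene of p21, was not called at its brightest probe (-0.23, adjusted p = 0.125), while 1 of its 2 other probes was lower (-0.38, adjusted p = 0.0167). That call was lost under median scaling, with the 4 arrays harvested at 48 h alone, without 48 h replicate 2 and without control replicate 2 (adjusted p of at most 0.142). Between 24 h and 0 h, 6 of the same 9 genes were higher and 1 was lower, with a median of 0.49, beside 14.8% higher, 14.1% lower and a median of -0.01 over all tested probes. The difference between these 2 contrasts was not tested.

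Changes of detection were a small part of the calls. Of the 2502 called probes 2176 (87.0%) were detected on all 4 arrays, 79 on both 48 h arrays and no control array, 124 on both control arrays and no 48 h array, and 123 in other patterns. Among all tested probes, called or not, 161 and 212 had these on and off patterns. The on probes had a median difference of 0.52 and the off probes one of -0.59, and at least 1 log2 unit was reached by 5 and 23 of them. Levels in both sets lay near the detection limit, with median raw intensities of 138 at 48 h and 121 in the control for the on probes, and of 121.5 at 48 h and 137 in the control for the off probes. Without 48 h replicate 1 the on set held 50 probes.

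The 4 largest on differences were those of Spen, an unnamed probe, Actg2 and Sall2. The unnamed one, ILMN_2617005, read 6.27 and 6.34 at 48 h, against 4.76 and 4.65 in the control, and it was detected at neither 24 h nor 0 h. Sall2, a zinc finger gene, was at least 1.91-fold higher (6.01 and 6.01 at 48 h, against 4.83 and 4.84 in the control). The 4 largest off differences were those of ILMN_2810827, ILMN_2952493, Pramel7 and Tmem92, a membrane protein gene. Tmem92 read 5.08 and 4.98 at 48 h, against 6.81 and 6.81 in the control, at least 3.28-fold lower.

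Other off genes, looked at after their values were seen, were Foxa1, a pioneer factor of endoderm, and Inhbb, which encodes an activin subunit. Foxa1 read 5.01 and 5.03 at 48 h, against 6.497 and 6.45 in the control, was detected at neither 24 h nor 0 h, and was at least 2.6-fold lower. Inhbb was at least 2.09-fold lower (4.78 and 4.82, against 5.87 and 6.46), with 8.20 and 8.12 at 0 h. Foxa1 was thus on in the control alone of these groups, while Inhbb was highest at 0 h.

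Most probes that were on at 48 h had been detected earlier. Of the 79 on probes, 39 were detected on both arrays at 24 h and 26 on both at 0 h, and 24 were detected on no array of either time. Of the 124 off probes, 26 were detected on both arrays at 24 h and 44 on both at 0 h, and 59 were detected on no array of either time. Those 59 were detected in the control and at neither 0 h nor 24 h nor 48 h.

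**Figure D4:**
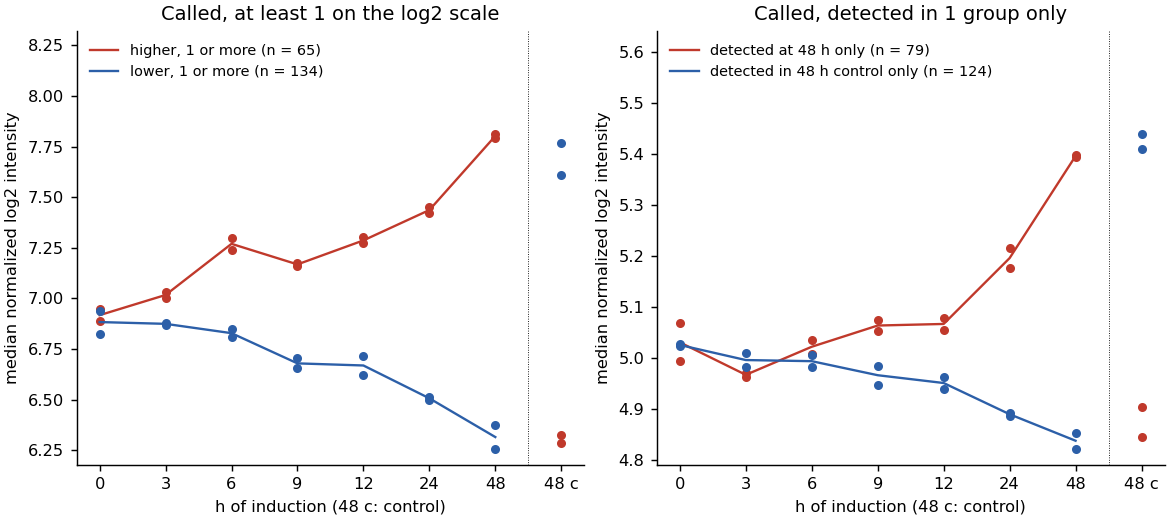
Median normalized log2 intensity (vertical) of sets of called probes on each array, by hours of induction (horizontal, steps not to scale), with the 48 h control (48 c) to the right of the dotted line. Points are arrays, lines join group means from 0 to 48 h, and the sets were chosen by the 48 h and control values. Left, the 65 higher probes of at least 1 log2 unit stood at 7.80 at 48 h, against 6.31 in the control and 6.92 at 0 h, and the 134 lower ones at 6.31 at 48 h, against 7.69 in the control and 6.88 at 0 h. Right, the 79 on and the 124 off probes are drawn in the same colours.

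Where the 0 h level of a called probe lay was described against the span between 48 h and the control. Of the 1237 higher probes, 527 had a 0 h level below both groups, 372 between them and 338 above both. Of the 1265 lower probes, 464 had a 0 h level below both, 453 between and 348 above both. Together 1677 of the 2502 called probes (67.0%) had a 0 h level outside that span and 1472 (58.8%) a 24 h level outside it. Over all tested probes, whose spans are narrower, the shares were 83.2% and 77.6%. These counts fell to 877 and 779 without 48 h replicate 1, to 912 and 798 without 48 h replicate 2, and to 972 and 876 without control replicate 2, in fits that make fewer calls. Rec8, Cldn4, Krt8 and Id4 are higher genes whose 0 h level lay below both groups, and Fgfbp1 and Id1 ones whose 0 h level lay above both. Cbln1, Tbx3, Nanog and Tcstv3 are lower genes whose 0 h level lay below both, and Pou5f1, Etv4, Utf1 and Inhbb ones whose 0 h level lay above both.

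A wider span holds more 0 h levels by construction, so the share between is no result of its own. Of the 65 probes higher by at least 1 log2 unit, 31 had a 0 h level between 48 h and control, 27 below both and 7 above both. Of the 134 lower by at least 1, 66 lay between, 46 below both and 22 above both. For 93 of these 134 (69.4%) the 0 h level was nearer to 48 h than to the control, and for 25 of the 65 (38.5%), beside 49.8% of all tested probes. For Pramel37, Tcstv1, Tcstv3 and Usp17la, the 0 h level lay below both groups and the control was the high one.

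More of the called probes stood nearer to 48 h at 24 h than at 0 h, and so did more of all tested probes. The 24 h level was nearer to 48 h than to the control for 735 of the 1237 higher probes (59.4%) and 886 of the 1265 lower probes (70.0%), beside 56.5% of all tested probes. At 0 h the shares were 41.4% and 55.4%, beside 49.8% of all tested probes. The 24 h share of the higher probes was thus near that of all tested probes. Of the 65 higher by at least 1, 3 had a 24 h level below both groups, 43 between and 19 above both. Of the 134 lower by at least 1, 63 had a 24 h level below both groups, 62 between and 9 above both. Since the 48 h and control arrays chose these probes, the positions are descriptions.

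**Figure D5:**
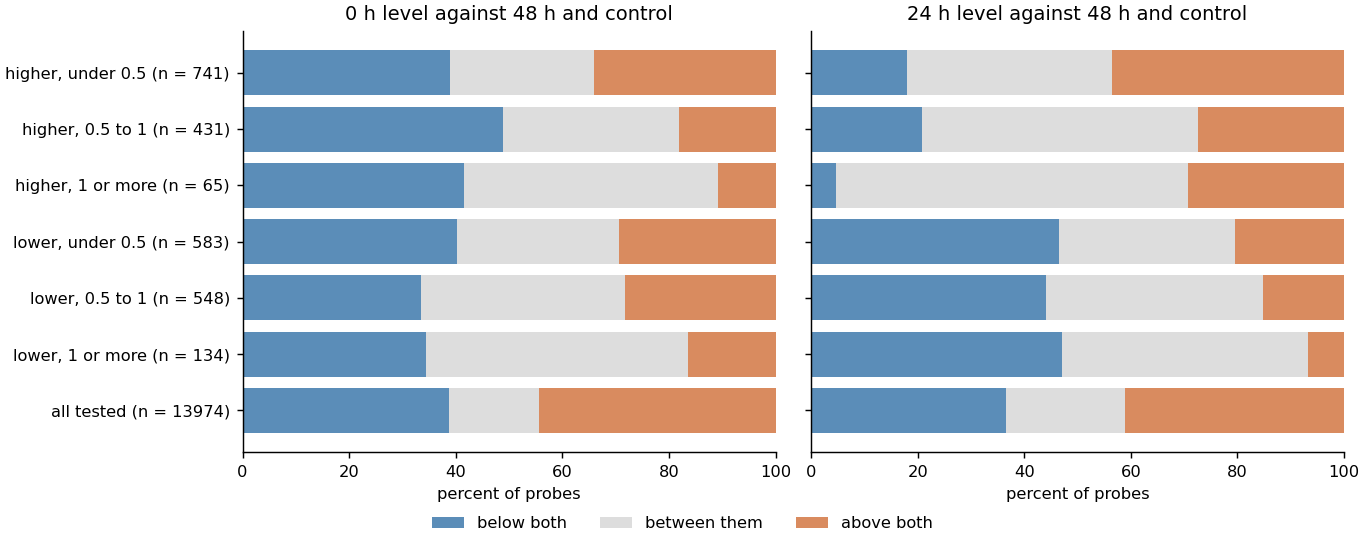
Percent of probes (horizontal) whose 0 h level (left) or 24 h level (right) lay below both the 48 h and the 48 h control mean, between them or above both, by direction and size of the log2 difference at 48 h (rows, number of probes in brackets). In every called row the grey share is wider than among all 13974 tested probes, as wider spans give by construction. At 24 h the higher rows hold smaller shares below both groups than at 0 h.

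The group means of 24 h and 0 h come from none of the 4 arrays of the 48 h comparison. Both contrasts share the spread of each probe, estimated in the same fit to all 16 arrays, so their calls are not independent. In the contrast of 24 h with 0 h, 4036 probes (28.9% of those tested) were called, 2062 higher (14.8%) and 1974 lower (14.1%). Of the 1237 probes higher at 48 h than in the control, 517 were also higher at 24 h than at 0 h and 91 were lower. Of the 1265 lower ones, 426 were also lower at 24 h and 146 were higher. Among differences of at least 1, 39 of 65 higher probes (60.0%) were called higher over the first day and 5 lower, and 61 of 134 lower probes (45.5%) were called lower and 15 higher. Rec8, Id4, Cldn3 and Spen are of the first kind. Acta1 and Lox are among the 5 that were lower at 24 h than at 0 h and yet higher at 48 h than in the control. Tcstv1 and Tcstv3 are among the 15 that were higher at 24 h than at 0 h and yet lower at 48 h than in the control.

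Genes with several probes gave a check within arrays. Of 700 genes with 2 or more tested probes of which at least 1 was called, all tested probes differed in the same direction in 595, and every probe was called in 187. In 4 genes, Dph3, Mbp, Prkd3 and Traf6, called probes lay on opposite sides, and these were singled out after their values were seen. Acta2, Klf4, Tbx3, Tdgf1, Jam2 and Mybl2 are of the 187.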

How the data were processed

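Per the labels' protocols, total RNA was amplified, labelled with biotin and hybridised to single-colour Illumina arrays. The deposited intensities are linear and called non-normalized by the authors, and each has a deposited detection p-value beside it. The authors' value table holds log2 values with the same median in every column (4.132) and the rank order of the intensities on each array. Its background step is not given in the sources used here. The submitters' processing notes name BeadStudio 3.2, RMA and lumi, with no role for each.

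The intensities were background corrected with limma 3.58.1 under R 4.3.3 (normal-exponential convolution, background estimated from detection p-values, offset 16), quantile normalized and taken to log2. Tested probes are the 13974 detected (p-value under 0.05) by 2 or more arrays, and 11723 were left out. A single limma model with 1 coefficient for each of 8 groups was fitted to all 16 arrays (8 residual and 6.31 prior degrees of freedom), and called probes have a Benjamini-Hochberg adjusted p under 0.05. The median SE at 48 h against the control was 0.12, and the number of arrays limits this precision. Arrays of 1 group correlated at r = 0.995 to 0.997. Probes that no array of a group detected were not well above background there. Groups were taken from the sample titles, and 0 columns of values were left unmatched.

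Platform annotation gave 23978 of the 25697 probes 1 gene symbol and 0 several, and 1719 are unnamed here. Of these probes 23962 matched the RefSeq gene table by Entrez identifier, which updated 0 symbols. Named are the 12 highest and 12 lowest called probes, the 4 largest of each direction detected in 1 group, and called members of the gene lists. Lists use the brightest probe of a gene. The members and lists were chosen with earlier results of these data known, and lists are described by counts and medians with no test of their own. The fit was tested on simulated data. Alternatives changed the scaling, background correction, filter, thresholds, moderation, arrays fitted and a replicate block.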

Additional observations from a re-analysis of the deposited data

How the results depend on the processing

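In all 19 alternatives together, no call shared with the 2502 changed sign. The count was 1340 at an adjusted p under 0.01, 199 with a log2 difference of at least 1, and 1411 to 1883 with 1 of the 4 arrays left out. The on set (79 probes) held 33 without background correction, 33 with the strict filter on dim probes, 38 at an adjusted p under 0.01, 5 at a log2 difference of 1, and 50 to 75 with an array left out. The off set (124) held 76, 47 and 23 without background correction, with the strict filter and at a log2 difference of 1, and 97 to 129 with an array left out. At 24 h against 0 h, 2423 and 250 probes passed the 2 stricter thresholds, and 2706 to 2842 passed with an array of these groups left out. Levels outside both 48 h groups were counted for 849 and 102 probes at 0 h and for 759 and 94 at 24 h under those thresholds, and for 877 to 1650 and 779 to 1444 with an array left out. Stricter thresholds and fewer arrays make fewer calls by construction, and the cause was not tested for background correction. Higher calls made up 49.4%, or 59.0% under median scaling, which moved the median of all probes to 0.05, and 32.7% at a log2 difference of 1. Same-numbered arrays of 48 h and the control deviated with r = 0.17, and over the 28 pairs of groups r ran from -0.07 to 0.29. The numbers were not taken to pair the samples, and with the replicate block 2829 probes were called, among them 2498 of the 2502. Among single named probes, 138 results under an alternative lost their call, 30 gained one and 0 reversed. Detection limits what can be said of dim probes, and only the sizes given with "at least" are bounds.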
